A study of Mus musculus with 22 samples.

Results

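The genes described here are 33 genes of erythroid maturation and haem synthesis, chosen by name as a readout of red cell production in the spleen. All 33 had a probe on the array, and 31 passed the filter on low values that left 20463 features, 14500 of them named genes. The arrays measured RNA of whole frozen spleens from 22 mice, 1 array per mouse, and the values are log2 intensities, on which 1 unit is a 2-fold difference. Every mouse carried a cyclin D1 transgene. The 7 diseased Bim-deleted mice lacked Bim in their B cells and had developed mantle cell lymphoma (MCL) by histopathology, and the 7 disease-free Bim-deleted mice had the same genotype without disease. The 8 transgene-only mice kept Bim and had no disease. Sheep red blood cells (SRBC), an antigen, were given to every mouse. Pristane, an oil that provokes inflammation, was added in 1 diseased, 2 disease-free Bim-deleted and 2 transgene-only mice, irradiation in 3 of each group, and SRBC were given alone to 3, 2 and 3 mice in the same order. A mouse is named below by its group, the letter P, I or A for pristane, irradiation or SRBC alone, and a number. The sources used here do not state age, strain, sex or the promoters that drive the transgene and the B cell deletion. P-values weigh a difference between means against the spread between mice that the fitted model leaves unexplained. The number of mice, 22, limits the precision.

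The mouse spleen, unlike the human one, keeps making red cells in adult life in its red pulp and expands this output under anaemia, inflammation or irradiation. Erythropoietin keeps early erythroid cells alive through its receptor, and the transcription factors GATA1, TAL1, KLF1 and NF-E2 then switch on the genes for haem, globin and the red cell membrane. Haem is built in steps that begin and end in the mitochondrion, which imports glycine and iron for it, and most of the RNA involved is lost when the reticulocyte matures. In whole spleen, fewer erythroid cells and less RNA per erythroid cell cannot be told apart.

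One mouse stood apart from the other 21 before any comparison. In transgene-only mouse P_1 the adult alpha globin probe Hba-a1 read 9.65, against 14.04 to 14.40 in all others, and the beta globins Hbb-bs and Hbb-bt read 10.57 and 10.36, against at least 13.97 elsewhere. It was below every other mouse in all 11 measured neutrophil and all 9 megakaryocyte markers, and in 6 of 11 red pulp macrophage markers, among them Slc40a1, the iron exporter of these cells (8.47, against at least 11.55 elsewhere). The other 5 red pulp markers (Vcam1, C1qa, C1qb, C1qc and Mertk), all 8 B cell markers and 7 of 8 T cell markers lay within the range of the other mice.

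The erythroid genes spanned most of the array's range. The array median was 6.55 and the highest value 14.40. Slc4a1, the anion exchanger band 3 of the red cell membrane, read 12.58 to 13.98 in diseased, 10.49 to 14.17 in disease-free Bim-deleted and 6.53 to 14.15 in transgene-only mice. Its high values lie close to the upper end of the array. Alas2, which starts haem synthesis in erythroid cells, read 11.66 to 13.19, 10.65 to 13.33 and 6.54 to 13.15 in the same order of groups. Epb42 (protein 4.2 of the membrane skeleton) and Rhd (the Rh blood group antigen) were the 2 genes that failed the filter, at 6.43 to 6.54 and 6.40 to 6.60, all near the array median. Bpgm, which makes the 2,3-bisphosphoglycerate that loosens the hold of haemoglobin on oxygen, passed the filter at only 6.59 to 6.84. Cldn13, a claudin of mouse erythroid cells, read 6.48 to 7.10, Cpox, a late enzyme of haem synthesis, 6.52 to 7.50, and Xk, which carries the Kx blood group antigen, 6.83 to 7.64. These 4 genes stayed below 8 in all mice.

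The members differed between mice far more than most genes did, and they did so together. Their SD over the 22 mice had a median of 0.98, against 0.096 over all features, and 27 of the 31 lay above the 95th percentile of all features, 17 of them above the 99th. Each member was set against the erythroid score of the other members. For this score every gene was centred on its own mean over the mice, and the centred log2 values were averaged over genes. Pearson's r had a median of 0.96 and exceeded 0.8 in 30 of 31 genes and 0.9 in 22. Tal1 had the highest r (0.99) and Bpgm the lowest (0.28). The genes share arrays, spleens and normalization, so r is given as a description only. The median r was 0.96 without the 5 pristane mice and 0.97 after group and stimulus were fitted out. Group membership took up 12.1% of a member's variance in the median, against 10.4% over all features. The 9 combinations of group and stimulus took up 54.3%, against 46.3% over all features.

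**Figure D1:**
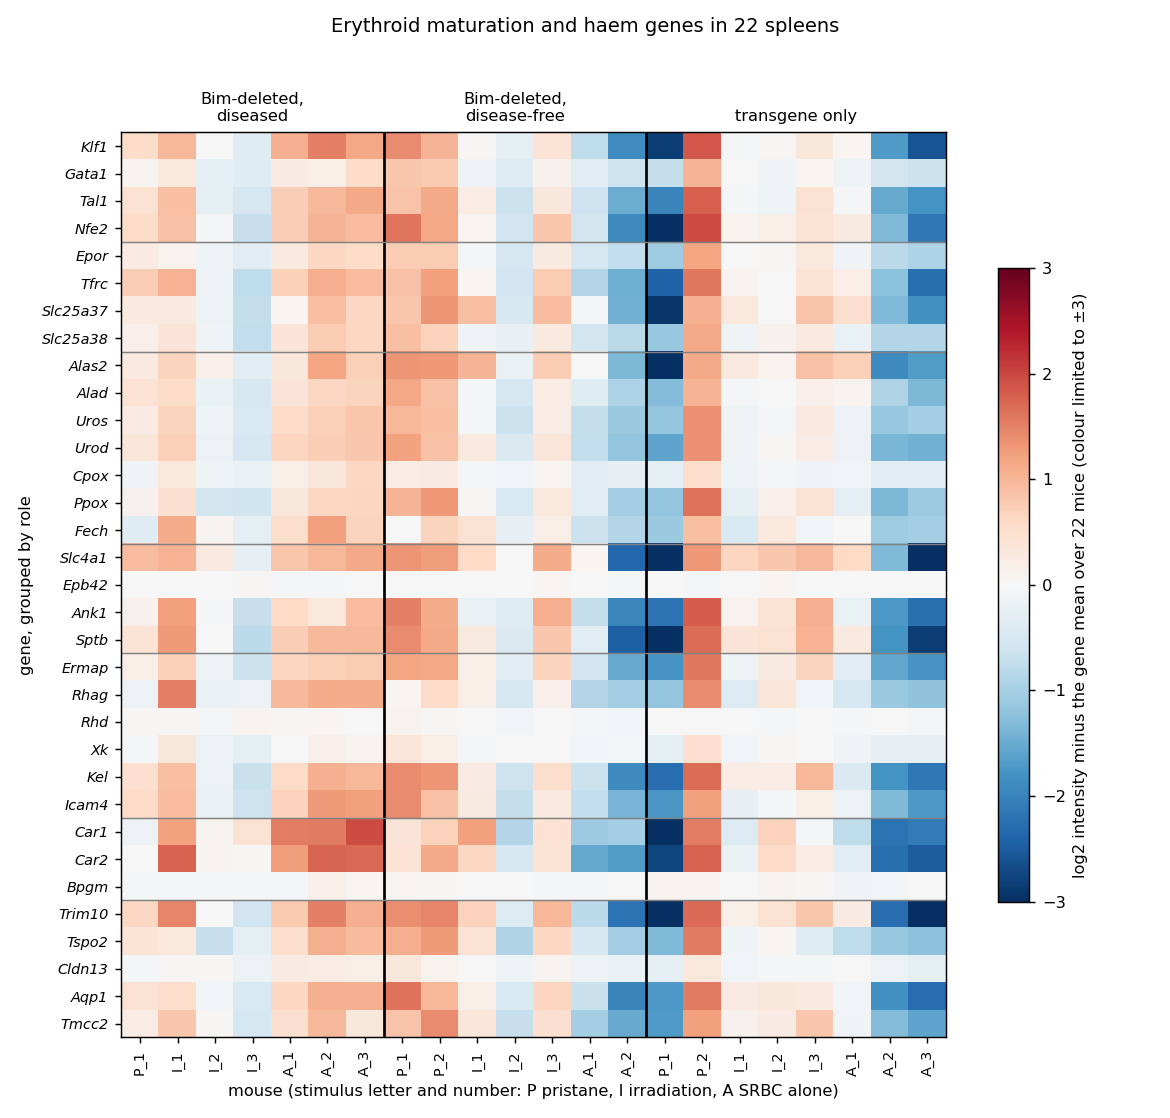
Log2 intensity of the 33 genes (rows, grouped by role) in the 22 mice (columns) as the difference from each gene's mean, with red higher and blue lower, limited to 3 units either way. Columns run P, I, A within each group; whole columns are red or blue, transgene-only P_1 is the bluest, and Epb42, Rhd and Bpgm stay near white.

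Because the members moved together, their promoters were searched for motifs that the erythroid factors bind. RefSeq (GRCm38.p6) gave 31 promoters for 25 of the 33 genes, and the 250 bases before each start were searched on both strands. A GATA motif (AGATAA with TGATAA, or the variants AGATAG with TGATAG) lay in 14 of 31 promoters (45.2%), against 26.5% of all 32851. A KLF1-type CACCC motif (CCNCNCCC) lay in 58.1%, against 45.9%, and a TAL1-type E-box (CAGATG, or its variant CAGCTG) in 16.1%, against 25.5%. A match is a string of letters and no proof of binding. The 100 bases before the start of 5 members with a GATA match follow, 5′ to 3′ in the direction of the gene, with GATA and CACCC matches in capitals; they are shown because these genes span a haem enzyme, a factor, a receptor and 2 surface proteins.
Alas2 (chrX:150547317-150547416, plus strand): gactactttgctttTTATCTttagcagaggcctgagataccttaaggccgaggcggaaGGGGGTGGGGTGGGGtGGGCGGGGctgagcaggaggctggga
Klf1 (chr8:84901882-84901981, plus strand): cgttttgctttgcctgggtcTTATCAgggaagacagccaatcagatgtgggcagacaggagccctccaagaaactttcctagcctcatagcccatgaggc
Epor (chr9:21963577-21963676, minus strand): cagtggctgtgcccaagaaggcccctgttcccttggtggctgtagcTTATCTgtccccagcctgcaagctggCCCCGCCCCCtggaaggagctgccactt
Icam4 (chr9:21029332-21029431, plus strand): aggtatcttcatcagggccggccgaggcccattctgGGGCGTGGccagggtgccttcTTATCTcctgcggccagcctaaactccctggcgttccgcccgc
Kel (chr6:41704326-41704425, minus strand): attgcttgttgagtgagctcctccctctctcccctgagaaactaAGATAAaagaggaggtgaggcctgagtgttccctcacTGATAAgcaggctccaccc
Alas2, Klf1, Epor and Icam4 carry the motif on the opposite strand, where its letters appear as the complement, and Kel carries it 2 times in the direction of the gene. Their r with the score of the other members was 0.87, 0.99, 0.96, 0.97 and 0.99, in the order shown. Epb42 and Rhd, whose probes were at background in every mouse, have a GATA match as well.

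The level of these genes differed more between mice of the same group than between the groups. The erythroid score of the 31 genes was 0.40 ± 0.51 in diseased (SD, n = 7), 0.05 ± 0.83 in disease-free Bim-deleted (n = 7) and -0.39 ± 1.13 in transgene-only mice (n = 8; -0.16 ± 0.99 in the 7 without P_1). Diseased mice scored 0.26 under pristane (P_1), 0.76, -0.11 and -0.42 under irradiation (I_1, I_2, I_3) and 0.57, 0.89 and 0.84 under SRBC alone (A_1, A_2, A_3). Disease-free Bim-deleted mice scored 0.93 and 0.94 under pristane, 0.25, -0.43 and 0.46 under irradiation, and -0.55 and -1.27 under SRBC alone. The 3 diseased mice on SRBC alone were thus high and the 2 disease-free mice low, while the irradiated mice of both groups overlapped. Transgene-only mice scored -2.01 and 1.31 under pristane, the lowest and the highest of all 22, then -0.01, 0.18 and 0.37 under irradiation, and -0.07, -1.28 and -1.61 under SRBC alone.

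**Figure D2:**
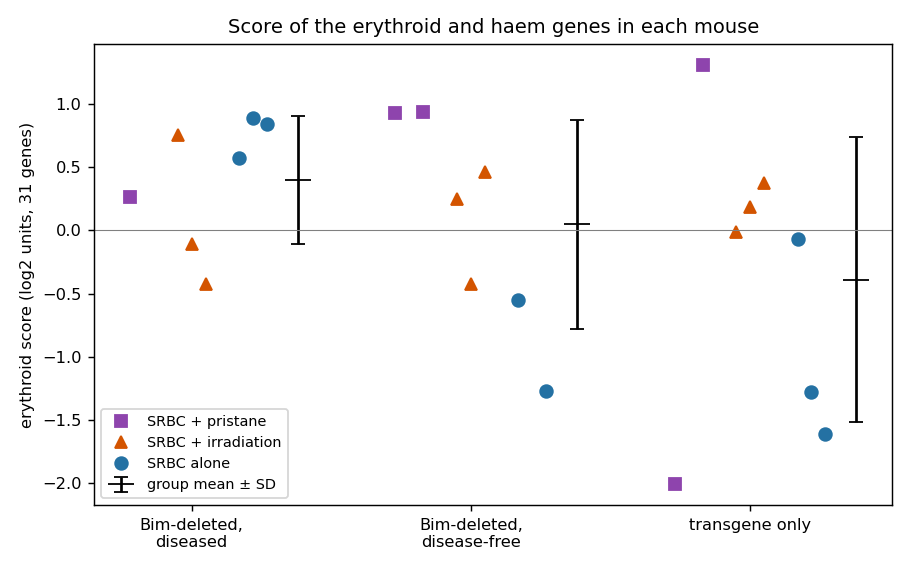
Erythroid score (mean over 31 genes of log2 intensity minus the gene mean, log2 units) of each mouse by group, with squares for pristane, triangles for irradiation and circles for SRBC alone; the cross with its bar is the group mean ± SD. Under SRBC alone the 3 diseased mice lie above the 2 disease-free Bim-deleted and the 3 transgene-only mice, whereas under irradiation all groups overlap.

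The members were first compared between mice with and without disease among the Bim-deleted ones, over all stimuli. Of the 31 members 0 passed limma's adjusted p of 0.05, in a comparison that called 1.83% of all features, and 0 had an unadjusted p under 0.05, against 14.7% of all features. Of them 28 were higher and 3 lower, with a median log2 change of 0.35, against -0.004 over all features. The largest differences were those of Car2 and Car1, the carbonic anhydrases of red cells, at 1.11 ± 0.65 and 0.98 ± 0.61 (SE), and Rhag, the Rh-associated ammonium channel, at 0.80 ± 0.40 (limma adjusted p = 0.466, 0.495 and 0.358). Alas2 differed by 0.01 ± 0.76. The median was 0.07 without disease-free Bim-deleted mouse A_2 and 0.79 without the 5 pristane mice.

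Without disease, Bim-deleted mice were set against transgene-only mice, and 0 of 31 members passed, as did 0% of all features. The median change was 0.44 and 30 members were higher, with 0 at an unadjusted p under 0.05, against 3.32% of all features. It was 0.17 without transgene-only mouse P_1 and 0.07 without the pristane mice. Diseased Bim-deleted against transgene-only mice gave 0 of 31 past the threshold as well, with 5.22% of all features called. There the median was 0.75 (0.56 without transgene-only P_1) and 30 members were higher. An unadjusted p under 0.05 was found in 6 of 31 members (Car1, Car2, Rhag, Fech, Icam4 and Klf1), a share near the 20.2% of all features. Car1 was 1.74 ± 0.59 higher (adjusted p = 0.0934). Car1, Car2 and Rhag passed with array weights, where 12.8% of all features did, and without transgene-only mouse P_2, the mouse with the highest score, where 9.58% did (adjusted p 0.0212, 0.0396 and 0.0314). Car1 and Rhag passed without the 5 pristane mice (0.0273 and 0.0327), with 13.1% of all features, and Car1 alone passed without both transgene-only pristane mice (0.0424), with 8.22%. The members' counts of 3, 3, 2 and 1 of 31 are near or below those shares.

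The disease difference was then read within each stimulus, from a model in which each of the 9 pairings of group and stimulus had its own mean. Under SRBC alone 30 of 31 members were higher in all 3 diseased than in both disease-free Bim-deleted mice, all except Bpgm, where 14.6% of all features separated upward in the same way. The median change was 1.75 and 21 members had an unadjusted p under 0.05, against 13.6% of all features, but 0 of 31 passed the adjusted threshold (smallest adjusted p = 0.189), with 0.0147% of all features called. Under irradiation the median was -0.02 with 12 members higher and 19 lower, 0 of 31 passed with 0.0586% of features called, and 0 had an unadjusted p under 0.05, against 8.62% of all features. This median has no stable sign: it was -0.36 without diseased mouse I_1, -0.24 with array weights and 0.28 without diseased mouse I_3. In the test of the difference between these 2 disease effects 31 of 31 members had a negative estimate, median -1.88, and 0 passed, as did 0% of all features (smallest adjusted p = 0.973). An unadjusted p under 0.05 was found in 6 members, against 4.70% of all features. No single member was thus shown to differ between the stimuli after adjustment.

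**Figure D3:**
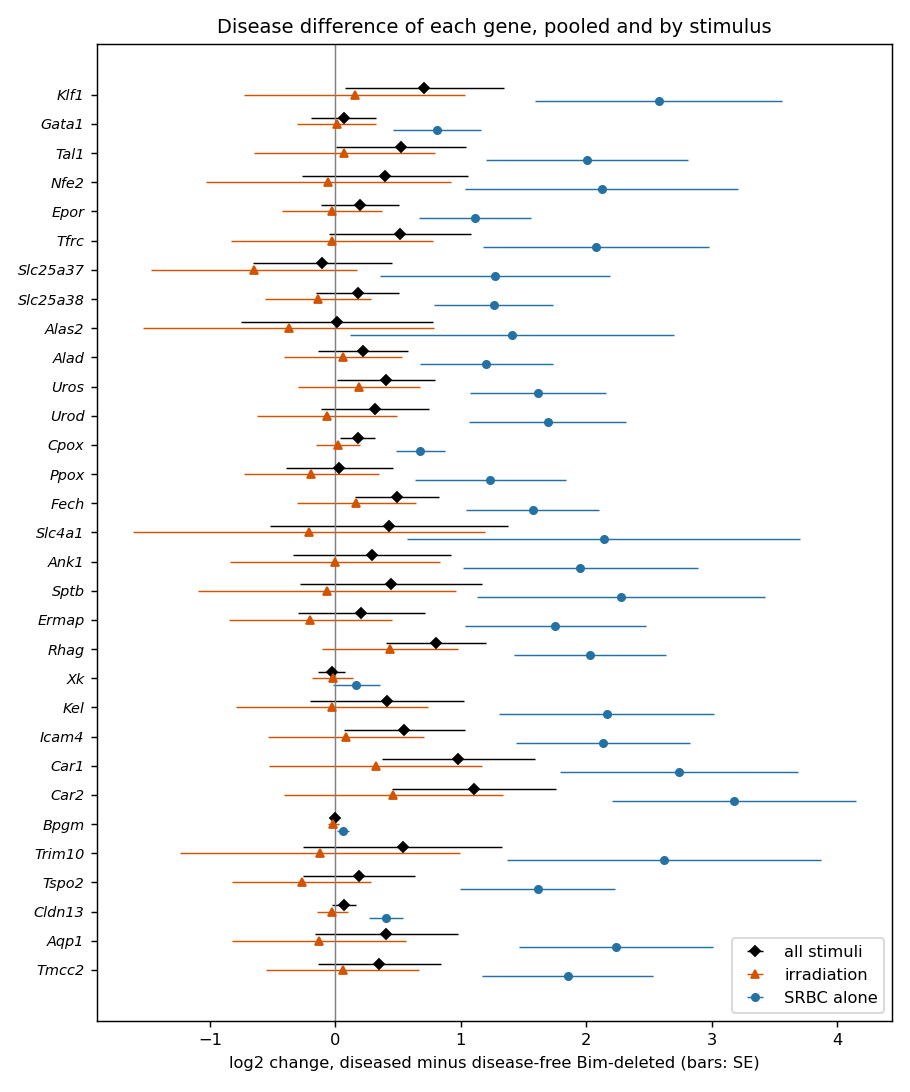
Log2 change of each member between diseased and disease-free Bim-deleted mice (bars, SE), with black diamonds for all stimuli, orange triangles for irradiation and blue circles for SRBC alone. Under irradiation the points lie around 0, and under SRBC alone all lie above 0, with Car2 farthest at 3.18; none passed the adjusted threshold.

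The SRBC-alone result carries a limit that these mice cannot remove. Xist, the RNA that coats the inactive X chromosome of females, read 7.99, 8.73 and 7.91 in the 3 diseased mice on SRBC alone, against 6.48 and 6.43 in the 2 disease-free Bim-deleted and 6.46, 6.53 and 6.40 in the 3 transgene-only mice. Eif2s3y, a gene of the Y chromosome, ran the other way, at 6.40 to 6.48 in these diseased mice, against 7.93 and 8.36 in the disease-free Bim-deleted and 8.18 to 8.49 in the transgene-only mice. Both genes were chosen after their values were seen. Sex and disease therefore cannot be told apart under SRBC alone. Among irradiated mice, diseased I_1 and I_3 had Xist at 7.52 and 8.63 and scored 0.76 and -0.42, diseased I_2 had Xist at 6.39 and scored -0.11, and the 3 disease-free Bim-deleted mice had Xist at 6.45 to 6.49 and scored -0.43 to 0.46. With each mouse's Xist level in the model, the median difference between diseased and disease-free Bim-deleted mice over all stimuli was -0.04, against 0.35 without it. All 5 pristane mice had Xist above 7.8. Over all stimuli sex and disease are therefore partly mixed as well. Xist read 7.52 to 8.73 in every diseased mouse except I_2. In disease-free Bim-deleted mice it read 7.82 and 8.51 in P_1 and P_2 and at most 6.49 in the others. In transgene-only mice it read 7.44 to 8.97 in P_1, P_2, I_1 and I_3 and 6.40 to 6.53 in the others. The calls of single genes over all stimuli given below carry this limit too.

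The calls under SRBC alone also turned on 2 mice outside the comparison. The transgene-only pristane mice lie far apart and enter the shared error estimate. Without both, 12 of 31 members passed with the same estimated changes and smaller SE. They were Car1, Car2, Cldn13, Cpox, Epor, Icam4, Klf1, Rhag, Slc25a38, Tspo2, Urod and Uros (limma adjusted p 0.0282 to 0.0493). In that fit 2.11% of all features passed. Leaving out either mouse alone is the same fit for this comparison, since a mouse left alone in its combination adds nothing to the error estimate. Without all 5 pristane mice 9 members and 1.9% of features passed, and with only the 8 SRBC-alone mice in the fit 5 members (Car1, Rhag, Slc25a38, Tspo2 and Uros) and 2.65% of features did. Against the transgene-only mice on SRBC alone, 28 of 31 members were higher in all 3 diseased mice, all but Slc25a37, Alas2 and Bpgm, beside 13.6% of all features.

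By role, the 4 transcription factors moved with the whole. Klf1, the factor that switches on adult beta globin, read 10.48, 10.91 and 10.57 in diseased mice on SRBC alone, against 8.64 and 7.51 in disease-free Bim-deleted mice. Those groups did not overlap (difference 2.58 ± 0.98), and 14.6% of all features separated upward in the same way. Sex and disease cannot be told apart in these mice. Nfe2, a subunit of NF-E2, read 10.68, 10.98 and 10.87, against 9.40 and 8.05. Tal1, a partner of GATA1, read 9.28, 9.53 and 9.69, against 7.92 and 7.06. Gata1, the master regulator of the lineage, had a weaker signal, at 7.45, 7.40 and 7.76 against 6.88 and 6.58, of which the lowest is near background. Across all mice the order of the 4 genes by SD was Klf1 (1.29), Nfe2 (1.29), Tal1 (1.03) and Gata1 (0.49).

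Among receptors and importers, Epor, the erythropoietin receptor, read 7.94, 8.26 and 8.20 in diseased mice on SRBC alone, against 7.14 and 6.90 in disease-free Bim-deleted mice. Tfrc, the transferrin receptor that brings iron into the cell, read 11.65, 12.03 and 11.86, against 10.07 and 9.47. Slc25a38, the mitochondrial carrier of glycine, read 11.28, 11.67 and 11.52, against 10.36 and 10.10. In each of these genes the 3 diseased mice lay above both others, as they did in 14.6% of all features. Slc25a37 (mitoferrin-1, the mitochondrial iron carrier) separated by little, at 11.19, 12.04 and 11.74 against 11.08 and 9.69. Under irradiation Slc25a37 read 11.41, 10.97 and 10.40 in diseased mice and 12.04, 10.63 and 12.06 in disease-free mice, a difference of -0.65 ± 0.82, and the groups overlapped.

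The haem enzymes were 7, of which Alas2, Alad, Uros, Urod, Cpox, Ppox and Fech act in that order. Urod, which trims uroporphyrinogen in the cytosol, read 12.44, 12.53 and 12.60 in diseased mice on SRBC alone, against 11.05 and 10.61 in disease-free Bim-deleted mice. Uros, the enzyme before it, read 8.98, 9.16 and 9.28, against 7.72 and 7.33, and Alad, which joins the first intermediates, 11.87, 12.11 and 12.15, against 11.11 and 10.56. Fech, which inserts the iron, read 8.35, 9.04 and 8.47, against 7.16 and 6.93. All 3 diseased mice lay above both disease-free mice in each of these enzymes, as they did in 14.6% of all features. The Fech difference was 1.57 ± 0.53. Ppox, the next to last step, differed by 1.23 ± 0.60 and Cpox by 0.68 ± 0.20. Alas2 read 12.34, 13.19 and 12.71, against 12.02 and 10.65, a difference of 1.41 ± 1.29 with the widest error of the pathway. Over the 7 enzymes the median change was 1.41 under SRBC alone and 0.02 under irradiation.

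Among the membrane genes, Slc4a1 had the highest SD of the 31 genes (1.88), at 13.67, 13.83 and 13.98 in diseased mice on SRBC alone, against 12.89 and 10.49 in disease-free Bim-deleted mice. Ank1, the ankyrin that ties band 3 to the skeleton, read 9.51, 9.23 and 9.84, against 8.20 and 6.95, and Sptb, beta spectrin, 10.64, 10.88 and 10.87, against 9.60 and 7.45. The differences were 2.14 ± 1.57, 1.95 ± 0.93 and 2.28 ± 1.15 for Slc4a1, Ank1 and Sptb. Of the surface proteins, Kel (the Kell antigen, an endopeptidase) read 9.30, 9.81 and 9.74, against 8.08 and 6.83, and Icam4 (the LW antigen, an adhesion molecule) 9.06, 9.66 and 9.61, against 7.64 and 6.99. Rhag read 8.70, 8.85 and 8.83, against 6.86 and 6.67. Ermap, an erythroid membrane protein, differed by 1.75 ± 0.72 and Xk by 0.17 ± 0.19.

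Car2 showed the largest change of any member under SRBC alone, at 10.75, 11.24 and 11.19 in diseased mice, against 7.95 and 7.81 in disease-free Bim-deleted mice (3.18 ± 0.97, limma adjusted p = 0.207). Car1 followed, at 11.11, 11.13 and 11.55, against 8.49 and 8.55. Over all stimuli the groups overlapped in both genes: Car2 ranged from 9.50 to 11.27 in diseased, 7.81 to 10.63 in disease-free Bim-deleted and 6.74 to 11.26 in transgene-only mice. Of the remaining genes, Trim10, a ubiquitin ligase family member of terminal erythroid cells, differed by 2.62 ± 1.25 under SRBC alone, Aqp1, the water channel, by 2.23 ± 0.77, Tmcc2 by 1.85 ± 0.68, Tspo2, a cholesterol-binding relative of the translocator protein, by 1.61 ± 0.62 and Cldn13 by 0.40 ± 0.13. Under irradiation these 5 differed by -0.27 to 0.06.

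**Figure D4:**
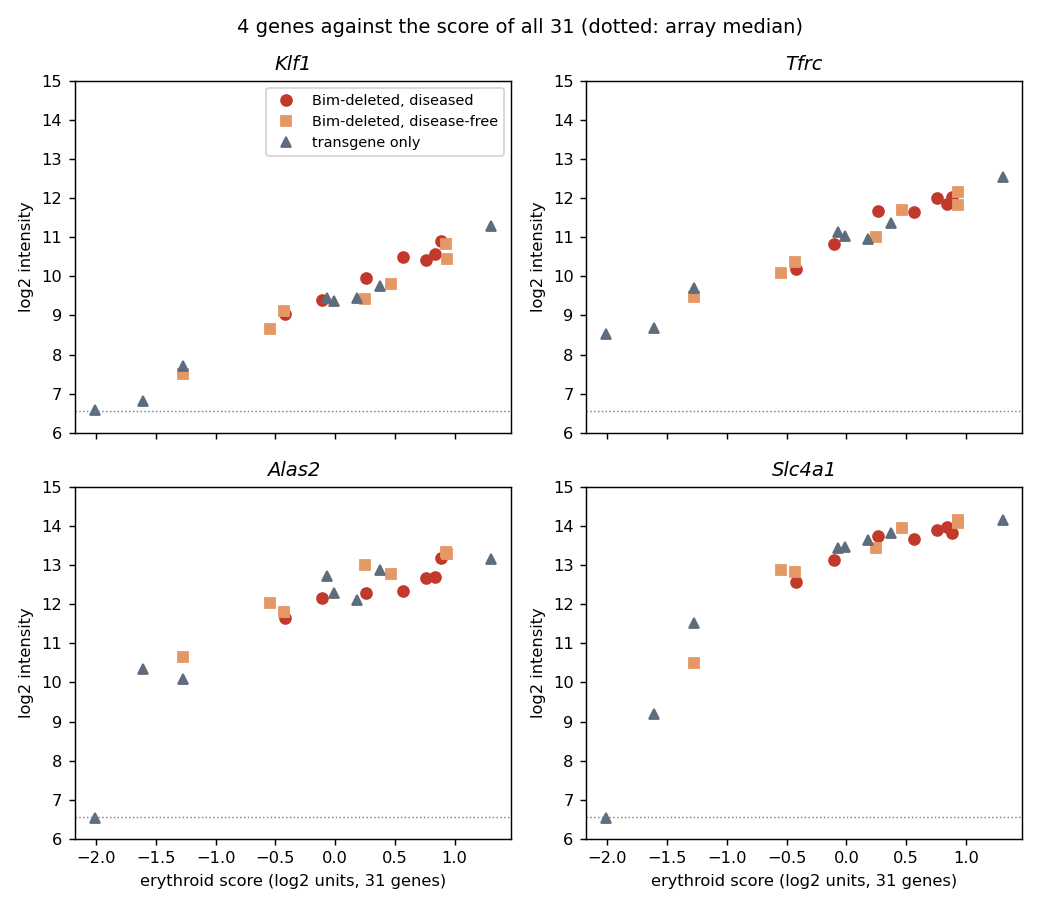
Log2 intensity of Klf1, Tfrc, Alas2 and Slc4a1 against the erythroid score of all 31 genes, 1 point per mouse, with circles for diseased, squares for disease-free Bim-deleted and triangles for transgene-only mice, and the array median dotted. All 4 climb with the score; Slc4a1 flattens near the top of the array, and in the mouse at the far left (transgene-only P_1) Klf1, Alas2 and Slc4a1 lie on the median while Tfrc reads 8.52.

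Not all members kept step. Within each mouse the Car2 value minus the Alas2 value was compared between groups; its absolute size has no meaning, since it joins 2 probes. It was -1.99 ± 0.54 in diseased, -3.09 ± 0.49 in disease-free Bim-deleted and -2.83 ± 0.64 in transgene-only mice (SD, n = 7 each). Transgene-only mouse P_1, with both probes near the array median, is left out. In diseased mice it ran from -2.79 to -1.40, and in disease-free Bim-deleted mice from -4.07 to -2.67. Only diseased mouse P_1 reached into the range of the disease-free Bim-deleted mice. The transgene-only mice without P_1, also free of disease, ran from -3.56 to -1.89 and overlapped the diseased mice more widely. The corresponding values of Klf1 minus Slc25a37 were -1.20 ± 0.30, -2.01 ± 0.53 and -1.95 ± 0.52. They overlapped more, at -1.58 to -0.70 in diseased and -2.61 to -1.12 in disease-free Bim-deleted mice. A further Slc25a37 probe followed the one used at r = 0.57 only. Tfrc minus Slc25a37 gave 0.15 ± 0.30, -0.47 ± 0.38 and -0.30 ± 0.35 in the same order of groups. Rhag minus Slc4a1 gave -5.23 ± 0.52, -5.61 ± 0.84 and -5.24 ± 1.27, so this pair did not set the diseased mice apart. All 4 pairs were chosen after their values were seen, so no test is given.

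The stimuli were compared with group in the model. Pristane against irradiation gave 0 of 31 members past the threshold with 0.279% of all features called and a member median of 0.35, and 0 members at an unadjusted p under 0.05, against 17.3% of features. Pristane against SRBC alone gave 0 of 31, with 0.0147% of features called, a median of 0.83 and 3 members (Gata1, Ppox and Uros) at an unadjusted p under 0.05, against 15.4% of features. Irradiation against SRBC alone gave 0 of 31 and 0% of features, a median of 0.39 and 0 members at an unadjusted p under 0.05, against 4.68% of features. The pristane results turned on transgene-only mouse P_1. Without it the median of pristane against SRBC alone was 1.36 and 6 members rose: Gata1 by 0.86, Epor by 0.99, Alad by 1.13, Ppox by 1.36, Urod by 1.35 and Uros by 1.23 (adjusted p 0.0300 to 0.0480), where 6.92% of all features were called. Gata1 also rose against irradiation by 0.77 (adjusted p = 0.0363), as 1 of 31 members, where 8.85% of features were called. The other 4 pristane mice scored 0.26 to 1.31, against -1.61 to 0.89 in the 8 mice on SRBC alone. Those 4 pristane mice had Xist at 7.82 to 8.51, whereas on SRBC alone only the 3 diseased mice had Xist above 6.53. Sex and stimulus are therefore partly mixed in the calls against SRBC alone. With the Xist level in the model, and P_1 kept, the median of pristane against SRBC alone was 0.32.

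Other erythroid genes, from a list of 36 of which 27 were measured, had a score that followed that of the members (r = 0.99 over 22 mice; rho = 0.99). Blvrb (biliverdin reductase B), Tmem14c (a mitochondrial carrier of haem precursors) and Lmo2 (a partner of TAL1) were its 3 brightest genes. Of the 27 genes 1 fell in diseased against disease-free Bim-deleted mice and 0 rose, where 1.83% of all features changed. This was Ldb1, the bridging cofactor of the GATA1 and TAL1 complex, which fell by 0.34 ± 0.08 (limma adjusted p = 0.0281). Ldb1 read 10.91 to 11.05 in diseased and 11.07 to 11.65 in disease-free Bim-deleted mice. These ranges did not overlap, and 0.205% of all features separated downward in the same way. In transgene-only mice Ldb1 read 11.17 to 11.69 (change against these -0.43, adjusted p = 0.00262), where 5.22% of all features changed. Ldb1 is also made in many other cells of the spleen, and sex and disease are partly mixed in both comparisons.

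Among 17 measured signals of stress erythropoiesis, 2 fell in diseased against disease-free Bim-deleted mice (1.83% of all features changed), Smad5, which carries BMP signals, by 0.30 ± 0.06 (adjusted p = 0.0185) and Stat5a, which acts downstream of cytokine receptors, by 0.28 ± 0.07 (0.0487). Against transgene-only mice the same 2 genes and Kit, the receptor of stem cell factor, were the 3 that fell (-0.36, -0.37 and -0.34; adjusted p 0.00214, 0.00454 and 0.0374), where 5.22% of all features changed. Whole spleen does not show in which cells these 3 genes fell, and sex and disease are partly mixed in both comparisons. Jak2, the kinase of the erythropoietin receptor, fell in pristane against irradiated mice (-0.40, limma adjusted p = 0.0480), where 0.279% of all features changed. Xist read 7.82 to 8.51 in pristane and 6.39 to 8.97 in irradiated mice, so sex and stimulus are partly mixed in that comparison. Socs3 and Cish, both feedback inhibitors of cytokine signalling, differed by -0.19 and 0.21 in diseased against disease-free Bim-deleted mice and did not pass, and Epo itself lay at background in all mice (6.39 to 6.56). Of 8 globin probes 0 changed in diseased against disease-free Bim-deleted mice, where 1.83% of all features did. Most of these probes could hardly show a change. Hba-a1, Hbb-bs and Hbb-bt read 14.15 to 14.40 in all Bim-deleted mice, close to the highest value of the array. Hba-x, Hbb-bh1 and Hbb-y lay at background in them (6.39 to 6.60). The adult Hbb-b2 read 10.77 to 11.60 in diseased and 9.69 to 11.42 in disease-free Bim-deleted mice. In transgene-only mice it lay at separate levels, below 8 in 5 mice (6.66 to 7.64) and at 10.47, 10.84 and 11.12 in the other 3, so the mean difference of 2.61 ± 0.65 between diseased and transgene-only mice (adjusted p = 0.0228) describes neither set, and disease-free Bim-deleted mice were 2.40 above the transgene-only mean as well. Against transgene-only mice the embryonic Hbb-bh1 fell by 0.11 near background (0.0461). Probes of the near-identical adult globins may share signal.

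Markers of other cells moved with the erythroid score. Over the 22 mice r was 0.85 for proliferation genes (Mcm5, Birc5, Mcm2 brightest), 0.72 for megakaryocyte markers (Ppbp, Treml1, Pf4), 0.69 for neutrophil markers (S100a8, S100a9, Ltf) and 0.53 for red pulp macrophage markers (Slc40a1, Vcam1, C1qb). It was -0.80 for T cell markers (Cd3d, Cd3e, Cd3g), -0.54 for B cell markers (Cd79b, Blk, Cd22) and -0.28 for endothelial markers (Plvap, Egfl7, Pecam1). Without the 2 mice farthest from the median score, r was 0.85, 0.61, 0.51, 0.34, -0.76, -0.60 and -0.36 in the same order. Under SRBC alone the T cell score was -0.48 to -0.32 in diseased mice, against 0.42 and 0.49 in disease-free Bim-deleted and 0.68 to 0.95 in transgene-only mice, and all 8 measured T cell markers were lower in diseased than in disease-free Bim-deleted mice there. The proliferation score was 0.26 to 0.51 in these diseased mice, against -0.63 and -0.37 in disease-free Bim-deleted and -0.62 to -0.19 in transgene-only mice. Past the threshold were 2 single markers, both lower in diseased than in transgene-only mice over all stimuli, where 5.22% of all features changed. They were Bcl11b, a T cell factor, by 1.06 (limma adjusted p = 0.0411) and Cr2, the complement receptor of B cells, by 0.49 (0.0218). Sex and disease are partly mixed in that comparison. All 8 measured T cell markers were lower in that comparison, whereas 5 of 8 B cell markers were higher and 3 lower (median 0.05). The part of these cells in the erythroid values was not tested.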

How the data were processed

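The authors deposited normalized log2 intensities of 22 one-colour Illumina arrays (biotin label, per the labels' protocols). The columns share 1 distribution, the base of the log was read from the values, and the sources used here name neither software nor background correction. A second table, unnormalized, has 44 columns of per-sample values whose names match no mouse and was not used. The titles list 8 transgene-only mice and the design text speaks of 7; all 8 entered.

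Of 45281 probes, those above an array's 40th percentile in at least 7 arrays were kept (30013), and each gene was represented by its probe with the highest mean. Groups were fitted with limma 3.58.1 in R 4.3.3 (lmFit, eBayes), all 22 mice sharing 1 spread; stimuli in an additive model; within-stimulus differences with a mean per combination. Alternatives changed the filter, probe choice, eBayes settings, weights, covariates and the mice included. P-values are two-sided, adjusted by Benjamini-Hochberg over all 20463 features, threshold 0.05. The code was tested on simulated data. Members, lists and the naming rule (all members; from each other list the 3 brightest genes and any past the threshold) were chosen with earlier results of these data known.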

Additional observations from a re-analysis of the deposited data

Results flagged for a closer look

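Single mice far from the rest of their group were looked for in 96 combinations of gene and group, and 5 were found. The limit used marks about 1 in 20 groups of independent, normally spread values, and these genes are not independent of each other. Alas2 in transgene-only mouse P_1 read 6.54, against at least 10.08 in the other 7 mice of the group. In transgene-only mouse P_2 Gata1 read 8.22, Cpox 7.39 and Xk 7.64, where the next highest mice of the group read 7.27, 6.80 and 7.16. Slc4a1 in disease-free Bim-deleted mouse A_2 read 10.49, against at least 12.82 in the other 6 mice. The 4 flags of transgene-only mice belong to the pair with the lowest and the highest erythroid score.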

How the results depend on the processing

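No member passed the threshold in the comparisons as reported, and of 284 recomputed counts of changed members 273 were 0 as well and 11 were not. In diseased against transgene-only mice the count was 3 with array weights, 2 without the 5 pristane mice and 1 without both transgene-only pristane mice, and leaving out single mice gave 0 to 3 (3 without transgene-only P_2). In diseased against disease-free mice under SRBC alone it was 9 without the 5 pristane mice, 12 without both transgene-only pristane mice and 5 with only the 8 SRBC-alone mice, and leaving out single mice gave 0 to 12 (12 without transgene-only P_1 or P_2). The counts of 12 are 1 result, since these refits are the same fit for this comparison. In pristane against SRBC alone leaving out single mice gave 0 to 6, and against irradiation 0 to 1, each time at the upper value without transgene-only P_1. Mice with the same title number deviated from their group means with r from -0.35 to 0.66. Such mice also share a stimulus, which was not removed, and mice with different numbers were not compared. Whether the numbers pair mice was therefore not tested. With the title number as a replicate block the counts stayed at 0 and the medians were 0.64 (diseased minus disease-free Bim-deleted), 0.34 (disease-free Bim-deleted minus transgene-only) and 0.96 (diseased minus transgene-only). With the Xist level as a covariate, chosen after seeing the data as were the last 2 SRBC-alone subsets, the medians were -0.04, 0.62 and 0.51. The planned neqc processing was not run, since the columns of the unnormalized table could not be tied to mice. Of 28 further probes of 16 members, 13 followed the probe used at r over 0.8 and 13 were low and did not; 2 above 7 did not follow it.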
